A study of Arabidopsis thaliana with 12 samples.

Results

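PSB27, LPA19, CCB3 and ATAB2 are nuclear genes of Arabidopsis thaliana whose products help to build or repair the photosystems and the cytochrome b6f complex of the chloroplast. They were found by gene symbol among the array's probes that the platform annotation assigns to a single gene. Each had 1 such probe, so that these are 4 of 691 genes with a probe of their own. The samples were 6 of the atc6 mutant, which lacks the cytochrome c6 protein, and 6 of the wild type (WT). Both genotypes were ecotype Columbia 0, and both grew on MS medium, the usual mixture of mineral salts for plants in culture. Neither the age nor the tissue of the plants, nor the allele of the mutant, is given in the labels. The knocked-out gene was not among the genes with a probe of their own and was not analysed here, so the genotype could not be checked on its transcript.

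The large protein complexes of the thylakoid membrane do not form on their own. Assembly factors bind subunits for a time, attach cofactors or promote the synthesis of chloroplast-encoded subunits, and are absent from the finished complex. PSB27 (AT1G03600) is a lumenal protein that binds photosystem II during assembly and repair. LPA19 (AT1G05385), a homologue of PSB27, takes part in the C-terminal processing of the D1 precursor, the reaction-centre protein of photosystem II. CCB3 (AT5G36120) is one of the factors that attach a haem covalently to cytochrome b6. ATAB2 (AT3G08010) is an RNA-binding protein that promotes translation of the photosystem I reaction-centre proteins.

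Values are deposited array intensities on a linear scale for 3439 probes. Samples numbered 1 and 2, 3 and 4, and 5 and 6 of a genotype were treated as doublets and averaged, so that 3 values stood against 3. The atc6 samples 1 and 2 stood apart from all others. Their median intensities were 4.46 and 4.52, against 0.323 to 0.627 in the other 10 samples. Their distribution was also flatter, with a brightest probe only 6.76 and 6.95 times the sample median, against at least 98.9 times in the other 10 samples. In 6 of those 10 the brightest probe was at the top value of the table, so that its ratio is a lower bound. Differences between the genotypes are therefore given with and without them.

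The study compared plants without cytochrome c6 with the wild type, and the comparison here asks whether transcripts of the assembly factors differed. None of the 4 genes passed the test. Samples were quantile-normalized together, which gives all of them a shared distribution, and differences were taken on the log2(value + pseudocount) scale with a pseudocount of 0.267. In limma, over 3329 probes, 0 probes (0%) had an adjusted p under 0.05, while 167 (5.02%) were under 0.05 before adjustment. A plain test of each probe, without limma's moderated spread, called 0 as well (139 under 0.05 before adjustment). Values of atc6 and WT doublets did not overlap in 11.2% of all probes, and they overlapped for all 4 genes. In RNA of whole samples, fewer cells that express a gene and less of its RNA per cell cannot be told apart. The adjusted p-values in limma were 0.929 for PSB27, 0.903 for LPA19, 0.984 for CCB3 and 0.871 for ATAB2. The labels do not say whether the doublets came from separate plants or cultures, so the p-values rest on a spread that may be only technical.

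**Figure D1:**
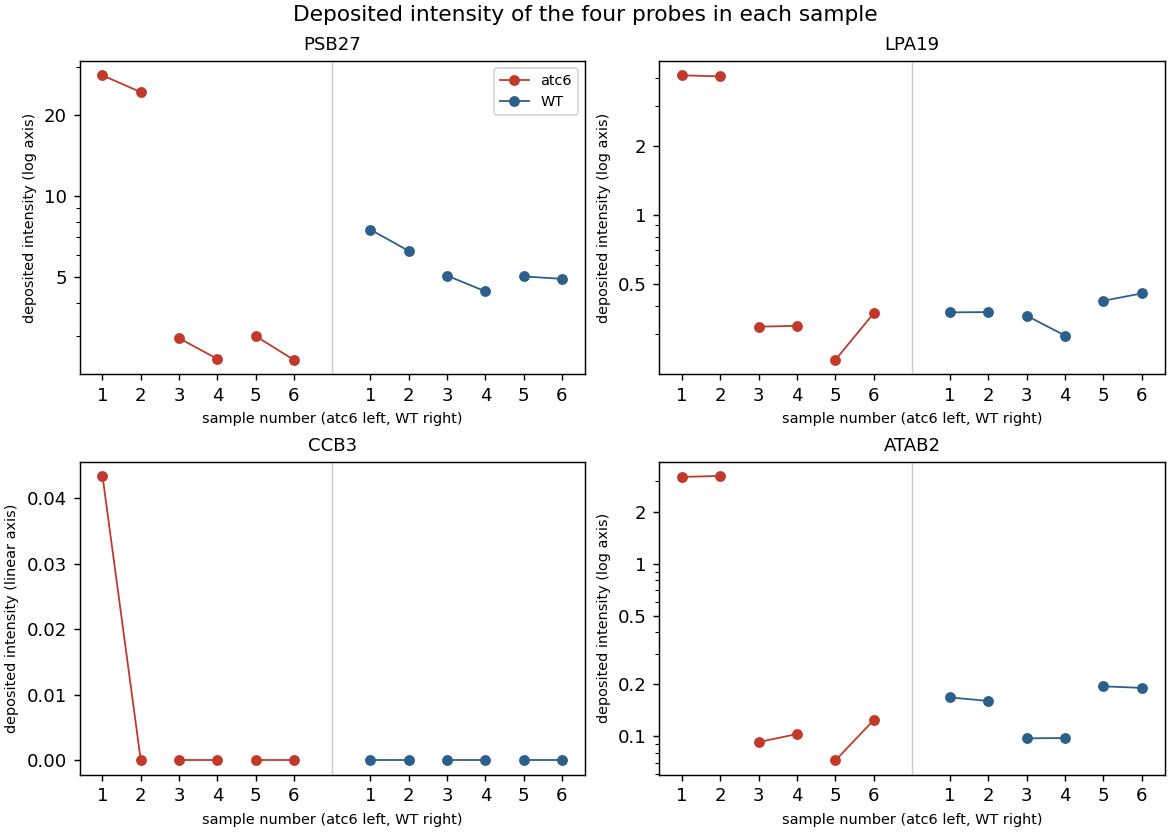
Deposited intensity of each gene's probe in the 6 atc6 samples (left, red) and the 6 WT samples (right, blue), with a line joining the samples of a doublet. The axis is logarithmic except for CCB3. The atc6 samples 1 and 2 lie above all others for PSB27, LPA19 and ATAB2, and CCB3 is above 0 in a single sample.

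PSB27 was the bright gene of the group, at percentiles 94.6 to 99.9 of all probes of a sample in atc6 and 97.2 to 98.7 in WT. Its probe had intensities of 28.0 and 24.2 in atc6 samples 1 and 2 and 2.45 to 3.01 in atc6 samples 3 to 6, against a lowest of 4.41, a median of 5.03 and a highest of 7.47 in WT. The mutant values thus lay on both sides of the wild type, far above it in samples 1 and 2 and below every WT sample in samples 3 to 6. The mean of atc6 samples 3 to 6 was 0.494 times the WT mean, on the values as deposited, against 0.823 for LPA19 and 0.647 for ATAB2. The medians of these samples, at 0.323 to 0.500, were themselves mostly below those of WT, at 0.485 to 0.627, so these ratios include the scale of the samples.

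After quantile normalization the log2 level of PSB27 was 5.32 in the first atc6 doublet and 2.39 and 2.52 in the others, against 3.33, 2.82 and 2.84 in WT. The mean was 3.41 ± 1.65 in atc6 and 2.9996 ± 0.29 in WT (SD, n = 3 doublets each). The difference of 0.41 ± 0.72 (SE) had a 95% interval of -1.26 to 2.08, with an adjusted p of 0.929 in limma. This interval allows changes of more than 2-fold in either direction. The first atc6 doublet lay 2.86 above the mean of the other atc6 doublets, and 0.511% of all probes had a gap at least as large. Normalization also drew the samples of this doublet apart. They differed by 0.21 on the log2 scale as deposited, against 0.030 to 0.29 within the other doublets, and by 1.49 after quantile normalization, against 0.040 to 0.23.

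Without atc6 samples 1 and 2 the sign of the PSB27 difference turned. It was -0.54 ± 0.25 (SE), with an interval of -1.12 to 0.037 and an adjusted p of 0.882 in limma (unadjusted 0.0624). When the other 10 samples were also normalized again, it was -0.82 ± 0.28 (SE), with an interval of -1.48 to -0.16 and an adjusted p of 0.738 in limma (unadjusted 0.0209). Both atc6 doublets that remained lay below all 3 WT doublets. The same non-overlap in that direction was found in 10.1% of all probes, so that it does not set PSB27 apart.

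The direction also depended on the scale used for atc6 samples 1 and 2. Relative to the median of its own sample, PSB27 stood at a lowest of 4.96, a median of 6.09 and a highest of 9.30 in atc6, against a lowest of 9.01, a median of 9.78 and a highest of 11.9 in WT. On this scale atc6 samples 1 and 2, at 6.28 and 5.37, were no longer above the wild type, and a single mutant sample (number 5) exceeded a single WT sample (number 4). By rank they were on the other side. PSB27 was the probe ranked 3 and 14 from the top in atc6 samples 1 and 2 and 114 to 185 in atc6 samples 3 to 6, against ranks of 44 to 98 in WT.

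**Figure D2:**
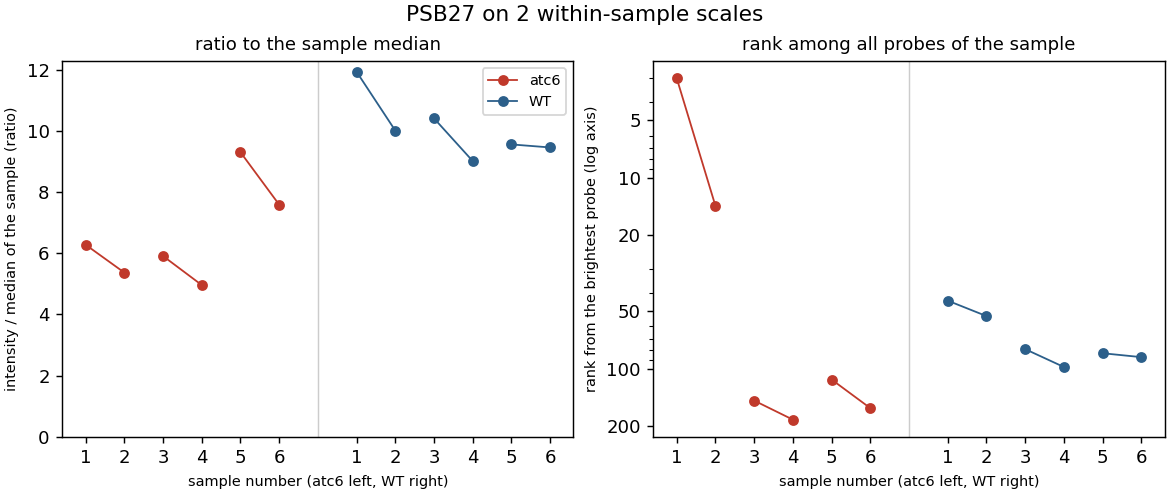
PSB27 in each atc6 sample (left of each panel, red) and WT sample (right, blue), as the ratio to the median of the sample and as the rank among all probes of the sample (log axis, brightest on top). The ratios of atc6 samples 1 and 2, 6.28 and 5.37, lie below WT, while their ranks, 3 and 14, lie above it.

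With samples scaled to a common median in place of quantile normalization, the log2 level of PSB27 was 2.07, 1.9995 and 2.60 in the atc6 doublets, against 2.98, 2.79 and 2.78 in the WT doublets. All 3 atc6 doublets were then below all 3 WT doublets, a pattern shown in the same direction by 5.8% of all probes. The difference was -0.62 ± 0.23 (SE), with an interval of -1.16 to -0.087 and an adjusted p of 0.906 in limma (unadjusted 0.0287). On this scale the first atc6 doublet stood at -0.23 relative to the mean of the other atc6 doublets, a gap that 72.3% of all probes reached. Cyclic loess gave a difference of -0.40 ± 0.42 (SE). The part of the flatter distribution of atc6 samples 1 and 2 in these differences was not tested.

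LPA19 was near or below the middle of the intensities, at percentiles 31.2 to 55.3 of all probes of a sample in atc6 and 29.6 to 43.6 in WT. Its probe had 4.09 and 4.05 in atc6 samples 1 and 2 and 0.231 to 0.370 in atc6 samples 3 to 6, against a lowest of 0.296, a median of 0.374 and a highest of 0.452 in WT. Relative to the sample median the genotypes overlapped, at 0.647 to 1.14 in atc6 and 0.597 to 0.872 in WT. Only atc6 sample 6 was above its sample's median.

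The log2 level of LPA19 was 0.41, -0.092 and 0.39 in the atc6 doublets, against -0.16, -0.0026 and 0.26 in the WT doublets. The mean was 0.24 ± 0.28 in atc6 and 0.030 ± 0.21 in WT (SD, n = 3 doublets each). The difference was 0.21 ± 0.25 (SE), with an interval of -0.36 to 0.77. It was 0.12 ± 0.25 (SE) without atc6 samples 1 and 2, and 0.11 without atc6 sample 6, which lay 0.57 above its partner. In contrast to PSB27, no normalization turned its sign, although no value passed the test and every interval included 0. The values as deposited were not fitted without atc6 samples 1 and 2. On them the mean of atc6 samples 3 to 6 was 0.823 times the WT mean, a ratio that includes the scale of the samples. Whether PSB27 and LPA19 differed in their response was not tested.

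ATAB2 was a dim probe. Its intensities were 3.19 and 3.23 in atc6 samples 1 and 2 and 0.0722 to 0.124 in atc6 samples 3 to 6, against a lowest of 0.0971, a median of 0.164 and a highest of 0.194 in WT. Scaling by the sample median did not bring atc6 samples 1 and 2 down to the rest. They stood at 0.715 and 0.716 of it, against 0.185 to 0.383 in atc6 samples 3 to 6 and 0.199 to 0.371 in WT. Within the samples ATAB2 lay at percentiles 38.9 and 39.0 of all probes in atc6 samples 1 and 2 and 9.61 to 20.5 in atc6 samples 3 to 6, against 10.6 to 17.4 in WT.

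The log2 level of ATAB2 was 0.16, -1.29 and -0.73 in the atc6 doublets, against -1.05, -1.20 and -0.76 in the WT doublets. The first atc6 doublet was above all others, and the remaining atc6 doublets were spread around the wild type. The mean was -0.62 ± 0.73 in atc6 and -1.003 ± 0.22 in WT (SD, n = 3 doublets each), so that atc6 minus WT came to 0.38 ± 0.37 (SE; 95% interval -0.48 to 1.25). Without atc6 samples 1 and 2 the difference was -0.0077 ± 0.26 (SE), with an interval of -0.63 to 0.62. The first atc6 doublet lay 1.17 above the other atc6 doublets, and 11.7% of all probes had a gap at least as large. The median absolute gap over all probes was 0.48.

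**Figure D3:**
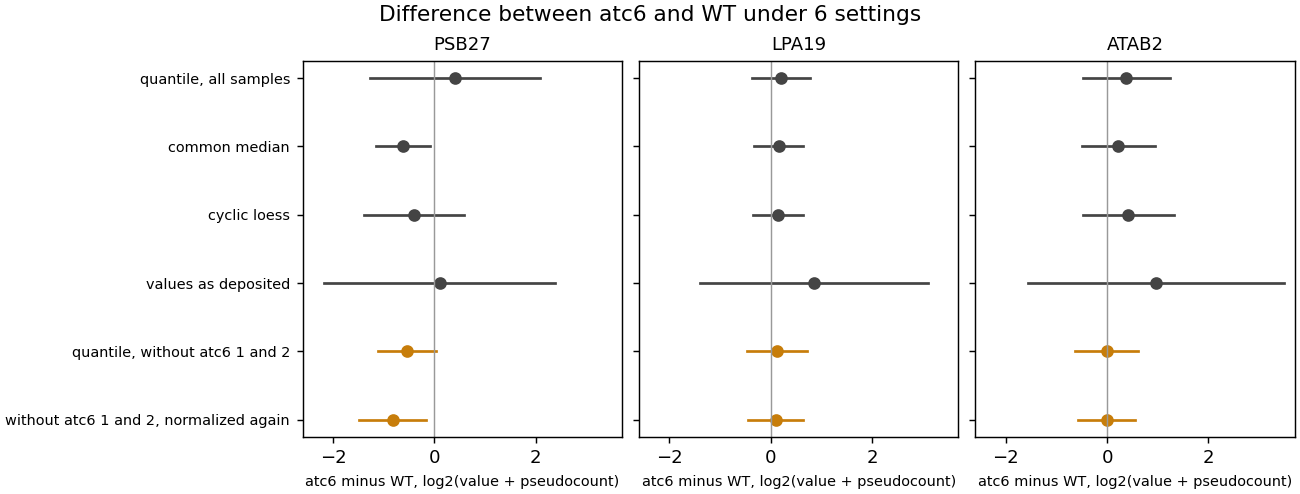
Difference between atc6 and WT (points, atc6 minus WT on the log2(value + pseudocount) scale) with 95% intervals for PSB27, LPA19 and ATAB2 under 6 settings, those without atc6 samples 1 and 2 in orange. After quantile normalization PSB27 lies at 0.41 with all samples and at -0.54 without these samples, and ATAB2 moves from 0.38 to -0.0077. With all samples PSB27 also lies at -0.62 at a common median, -0.40 after cyclic loess and 0.10 as deposited. The points of LPA19 stay above 0, with every interval including 0.

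CCB3 gave no usable level. It was listed at 0.0434 in atc6 sample 1 and at 0 in the other 5 atc6 samples, against 0 in all 6 WT samples. The partner of the sample above 0, atc6 sample 2, was also at 0. Of all 3439 probes, 140 were at 0 in 11 or more samples, and of the 692 single-gene probes 36 were. The nearest probes in number, 404 and 407, were above 0 in all samples. The fitted difference of 0.020 is set by the single value above 0, the pseudocount and how normalization treats zeros. Its SE was 0.20 with limma's moderated spread, against 0.012 in the plain test of this probe. The difference is no measure of the transcript, and no fold is given. These data therefore leave the level of CCB3 in both genotypes unmeasured.

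The doublet values of the genes were compared as a description, with no test. Likeness was taken as the root-mean-square distance between log2 levels over 6 doublets, each gene centred on its own mean, after quantile normalization. PSB27 lay 0.62 from ATAB2 and 0.92 from LPA19, its homologue, and LPA19 lay 0.33 from ATAB2. These distances rest in part on the first atc6 doublet and on the scale. Without it, over 5 doublets, PSB27 lay 0.39 from ATAB2 and 0.45 from LPA19, and LPA19 lay 0.12 from ATAB2. At a common median, over 6 doublets, PSB27 lay 0.59 from ATAB2 and 0.45 from LPA19, so that LPA19 was then the nearer of these genes. Among 609 other genes without a value at 0, the nearest to PSB27 were AT3G47650 (distance 0.36) and AT3G50130 (0.39). The nearest to LPA19 were AT1G07040 (0.068) and AT3G47100 (0.087), and the nearest to ATAB2 were AT1G50020 (0.050) and AT5G58410 (0.15). The median distance over these genes was 0.997 for PSB27, 0.37 for LPA19 and 0.53 for ATAB2. Without the first atc6 doublet the same pairs lay at 0.24 and 0.33 for PSB27 (median over these genes 0.40), 0.074 and 0.074 for LPA19 (0.32), and 0.051 and 0.15 for ATAB2 (0.33). At a common median, over 6 doublets, they lay at 0.43 and 0.53 for PSB27, 0.11 and 0.12 for LPA19, and 0.068 and 0.14 for ATAB2. The median over all genes was not taken on that scale, so these distances cannot be set against it. At a common median LPA19, at 0.45, was nearer to PSB27 than AT3G50130 was. CCB3, which gave no usable level, was nearer still, at 0.37, also than AT3G47650. Without the first atc6 doublet CCB3 lay 0.33 from PSB27, nearer than ATAB2 and LPA19. A small distance to PSB27 in these settings therefore does not show a shared pattern. The nearest genes were not searched for again in these settings. For CCB3, which is flat at 0, the nearest were AT4G21770 (0.046) and AT1G32730 (0.084), which says only that they vary little.

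A wider list of 43 assembly factors held 7 genes with a probe of their own, the 4 above among them. It covered 3 of 25 factors of photosystem II, 2 of 8 of photosystem I and 2 of 10 of the cytochrome b6f complex. Of the 7 genes, 5 had positive and 2 negative differences, and 0 passed limma's test. Their median difference was 0.21, against 0.037 over all probes, of which 53.9% were positive. At a common median, with all samples, 5 of the 7 were positive and the median was 0.022, against -0.0069 over all probes. After cyclic loess 4 of the 7 were positive. The median was then 0.067, the value of CCB3 itself, against 0.0060 over all probes. Without atc6 samples 1 and 2, 4 of the 7 were positive and the median was 0.0095, against 0.010 over all probes. That median is the value of CCB3 itself, which was deposited at 0 in every sample of this setting. On the values as deposited all 7 were positive, with a median of 0.71, against a median of 0.66 over all probes. CCB3, which gave no usable level, is counted as positive in each of these settings. The counts and medians therefore do not describe measured transcripts alone.

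The other 3 measured genes of that list carry no name in the gene table used here and entered it by locus tag. AT1G54500, listed with photosystem II, had a log2 level of 1.37 ± 0.53 in atc6 and 0.98 ± 0.39 in WT (SD, n = 3 doublets each), a difference of 0.39 ± 0.34 (SE). Without atc6 samples 1 and 2 it was 0.59 ± 0.34, opposite in sign to PSB27. AT1G22700, listed with photosystem I, differed by -0.030 ± 0.26 (SE), and by 0.18 ± 0.22 without these samples. AT1G49380, listed with the cytochrome b6f complex, was at -0.0028 ± 0.18 in atc6 and 0.28 ± 0.23 in WT, a difference of -0.28 ± 0.23 (SE) and of -0.24 ± 0.24 without these samples. Its sign was negative under quantile normalization, median scaling and cyclic loess, and positive at 0.39 on the values as deposited.

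Of 29 nuclear subunit genes of the complexes that these factors serve, 3 had a probe of their own, all of the photosystems and none of the cytochrome b6f complex or the soluble carriers. Differences were positive for PSAN, a photosystem I subunit, and PSBY, a small photosystem II subunit, and negative for PSBW, another small photosystem II subunit. None passed limma's test, the lowest adjusted p being 0.845. The deposited intensities of PSBW were 8.71 and 9.34 in atc6 samples 1 and 2 and 27.0 to 58.0 in atc6 samples 3 to 6, against 20.4 to 41.1 in WT. Its difference was -1.18 ± 0.95 (SE), and 0.057 ± 0.39 without atc6 samples 1 and 2, against 0.41 and -0.54 for PSB27. At a common median both genes had negative differences with all samples, -0.85 for PSBW and -0.62 for PSB27, so that their opposite signs depend on the scale. PSBY differed by 0.69 ± 0.24 (SE) with all samples and by 0.66 ± 0.26 without these samples.

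**Figure D4:**
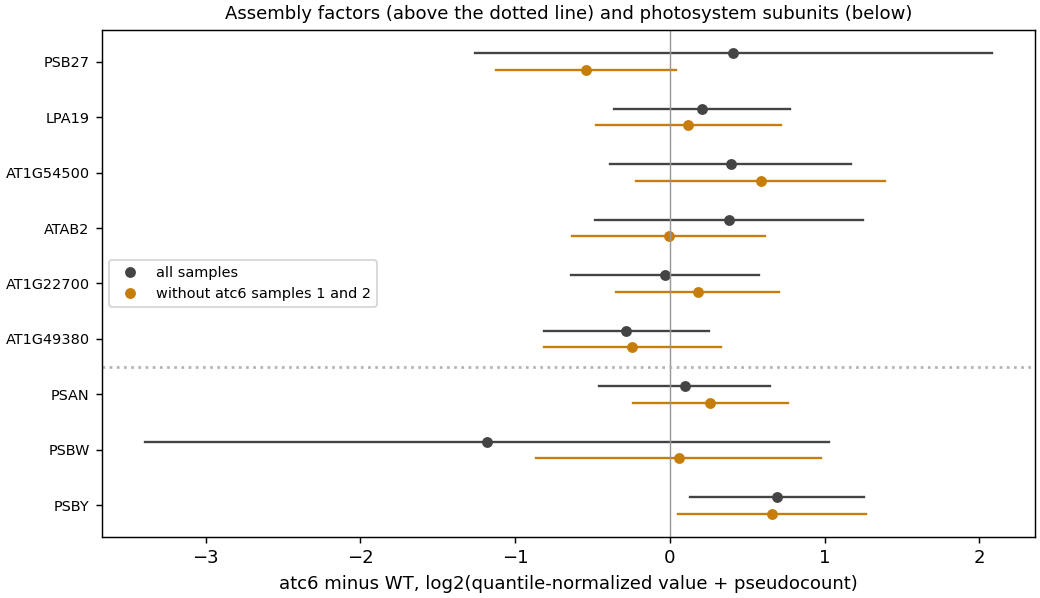
Difference between atc6 and WT (points, atc6 minus WT after quantile normalization, log2 scale) with 95% intervals for the measured assembly factors other than CCB3 (above the dotted line) and the measured photosystem subunits (below), with all samples in grey and without atc6 samples 1 and 2 in orange. PSB27, ATAB2 and PSBW move most when these samples are left out, PSBY hardly moves.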

How the data were processed

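RNA of 12 samples was measured on an array. The table deposited by the authors holds intensities on a linear scale, a unit inferred because no value is below 0 and none exceeds 100. How the arrays were scanned, background-corrected and scaled was not stated in the labels. The members and gene lists were chosen with earlier results of these data known.

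The 110 probes with no value above 0 were removed, and 3329 were fitted. Samples were quantile-normalized, a pseudocount of 0.267 (the 10th percentile of positive normalized intensities) was added, and log2 values were averaged by doublet. Samples of a doublet correlated at 0.59 to 0.89 in their deviations from the genotype mean. The two-sided test was that of limma 3.58.1 (R 4.3.3), with lmFit, eBayes and Benjamini-Hochberg adjustment over all probes fitted, and it was tested on simulated data. The number of arrays limits the precision.

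Named genes were the members, all measured genes of both lists, and the 2 genes nearest to each member. Names came from the platform annotation, which can be old. Of 692 single-gene probes, 690 matched the gene table of TAIR10.1, from which names alone were taken. The alternatives were other normalizations, pseudocounts, filters, priors and treatments of doublets, and samples left out.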

Additional observations from a re-analysis of the deposited data

Results flagged for a closer look

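In the atc6 mutant, CCB3 was above 0 in sample 1 alone, at a deposited intensity of 0.0434. On the normalized log2 scale its gap to the nearest other atc6 sample was 0.722 of the range of the 6 samples, above Dixon's 95% critical value for 6 samples. The atc6 samples 5 and 6 were likewise deposited at 0, but lay slightly above the other zeros after normalization. In these samples 7.82% and 7.53% of the probes were at 0, against 4.94% to 5.99% in the other 10. About 1 in 20 groups of normally distributed values is flagged by chance. That rate does not apply to this group, which is a single value above 0 among deposited zeros. In all, 7 groups with any spread were examined. The other 6 did not reach the critical value.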

How the results depend on the processing

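None of the 4 genes passed the test under any alternative run. Signs varied: LPA19 was positive in 34 of 34 alternatives (0.022 to 0.86), ATAB2 in 30 of 34 and PSB27 in 27 of 34. The 0.86 of LPA19 was on the values as deposited, where the median over all probes was 0.66. The values as deposited were not fitted without atc6 samples 1 and 2. CCB3 was positive in 32 of 32, also without atc6 sample 1, where all its deposited values were 0. In that setting its sign comes from normalization alone and is no measure of the transcript. Many alternatives refit the same normalized values, so these counts are not independent. PSB27 turned to -0.62 with a common median, -0.40 after cyclic loess, -0.54 without atc6 samples 1 and 2, -0.82 when the rest was also normalized again, -0.38 without samples 1 and 2 of both genotypes, -0.55 without atc6 samples 1 and 2 at a common median, and -0.013 on log2 percentiles. ATAB2 turned to -0.0077 without atc6 samples 1 and 2, -0.011 when the rest was normalized again, -0.033 without samples 1 and 2 of both genotypes, and -0.075 without atc6 samples 1 and 2 at a common median. The cause was not tested. PSB27 lay between 0.16 and 0.66 without single samples, and between 0.32 and 0.92 without any doublet other than the first atc6 one. The settings at log2 percentiles, at a common median without atc6 samples 1 and 2, the unmoderated test, and the likeness distances without the first atc6 doublet or at a common median were chosen after seeing the data.

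The number of probes changed was 0 and became 1 with a robust prior that follows intensity, 1 with a pseudocount at the 1st percentile, 1 on log2 percentiles, 1 with doublets as a random block, 2 without atc6 samples 3 and 4, and 99 with all 12 samples entered as if independent. Without single samples it was 0 to 1 (1 without WT sample 3). Same-numbered doublets of the genotypes correlated at 0.068, 0.14 and 0.24 in their deviations, not all above the required 0.1, though single samples were at 0.11 to 0.30. The doublet is the replicate here, so the numbers were not taken to pair the samples. A replicate block on averaged doublets gave a count of 0 and left PSB27 at 0.41 with an SE of 0.50 against 0.72. CCB3 gave no value with probes at 0 in any sample left out, or at a common median without atc6 samples 1 and 2. No member had another single-gene probe to try. The spread between doublets, with 3 against 3 values, limits detection to large differences, the median 95% interval reaching 0.67 to either side.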

Other observations

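PSB27 was brighter in the first-numbered sample of all 6 doublets, 3 of each genotype, on the values as deposited. The same order in all 6 doublets was found in 165 probes (4.96% of those fitted), and the opposite order in all 6 in 229 probes (6.88%). LPA19 and ATAB2 were each brighter in the first-numbered sample of 2 doublets and in the second of 4. What distinguishes the samples of a doublet is not given in the sources used here.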
